A study of Mus musculus and Homo sapiens with 22 samples.

Results

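The transcripts described here were those of the cytoplasmic fraction of mouse embryonic stem (mES) cells whose structure was probed both inside living cells and after refolding in a tube. A transcript was included where it was listed in both deposited score files and had at least 100 nucleotides scored in both, which gave 5673 of the 43971 mouse and human transcripts listed in any of the 12 structure files of the series. The in vivo file listed 10568 transcripts, the in vitro file 6288, and 6183 were in both. Of these, 510 had fewer than 100 shared nucleotides and were left out, 27 of them with none. Close to the limit, 38 transcripts had at least 100 and under 110 shared nucleotides and were kept, and 50 had 90 to 99 and were not.

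The study probed RNA structure by icSHAPE in chromatin, nucleoplasm and cytoplasm of mES cells and of HEK293 cells, a human embryonic kidney line. The mES cells were the V6.5 line, with no other treatment stated, so both groups share that line and that fraction. In the in vivo group, the reagent NAI-N3 was given to the cells for 5 min at 37 °C and the cells were fractionated afterwards. In the in vitro group, cytoplasmic RNA was purified after fractionation, denatured for 1 min at 95 °C, cooled to 4 °C, folded for 5 min in a buffer of HEPES and NaCl at 100 mM each with MgCl2 at 6 mM, and then given NAI-N3 for 5 min at 37 °C. Each group was 1 file, so no test between the groups was possible and every comparison is a description of these 2 files. The printed 95% intervals cover the counting of transcripts only, and since transcripts share genes and sequence they are too narrow.

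The reagent attaches to the ribose of nucleotides that can move freely, so unpaired and mobile positions react more and base-paired or otherwise held positions react less. In the cytoplasm an mRNA is bound by ribosomes, helicases and other proteins, whereas purified RNA folds by itself in the presence of magnesium. The comparison of living cells with refolded RNA therefore addresses how the cell's interior alters the reactivity of the same sequence. The deposited score runs from 0 to 1, with larger values for more reactive nucleotides.

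The 5673 transcripts had from 100 to 13293 shared nucleotides with a median of 723, and 7066338 together. Their lengths ran from 137 to 14579 nt with a median of 966 nt. A median of 82.8% of the nucleotides that could be scored were shared. The same positions were scored in both files in all 5673 transcripts, so no nucleotide was scored in one file alone. The files hold no read depths; the labels state about 200000000 reads for each replicate. The deposited abundance signal (no source used here names its unit) had a median of 38.2 in vivo and 35.1 in vitro, and it lay within 1.5 times between the files in 5411 transcripts. The files pair no transcript identifier with a gene name, so transcripts are called by their identifiers and no role is given for them.

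Transcript means were higher in living cells than after refolding. The mean score was higher in vivo in 87.2% of transcripts (4945 of 5673, interval 86.3% to 88.0%). The transcript means had a median of 0.213 in vivo and 0.174 in vitro, and the median difference per transcript was 0.0383. The middle 90% of differences ran from −0.0227 to 0.0761. A difference of at least 0.05 upward was met by 1767 transcripts, which was 31.1% of all compared, and one of at least 0.05 downward by 100, which was 1.76%.

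The share of transcripts higher in vivo depended on the scale. As ranks within each file, 57.1% of transcripts were higher in vivo, with a median rank difference of 0.00616 on a scale from 0 to 1. Ranking each file against itself removes a shift common to the whole file. The mean rank over shared nucleotides was therefore alike, at 0.510 in vivo and 0.501 in vitro. Ranks thus compare transcripts within a file and cannot show whether scores rose in the whole file. Over nucleotides above 0 in both files, 67.4% were higher in vivo, with a median difference of 0.0161. All 3 scales put 2635 transcripts (46.4%) higher in vivo and 706 (12.4%) lower. A further 1176 transcripts were higher in vivo by score and over nucleotides above 0 but lower by rank, and 540 were higher by score alone. A large minority of transcripts with higher scores in vivo thus ranked lower within their own file.

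**Figure D1:**
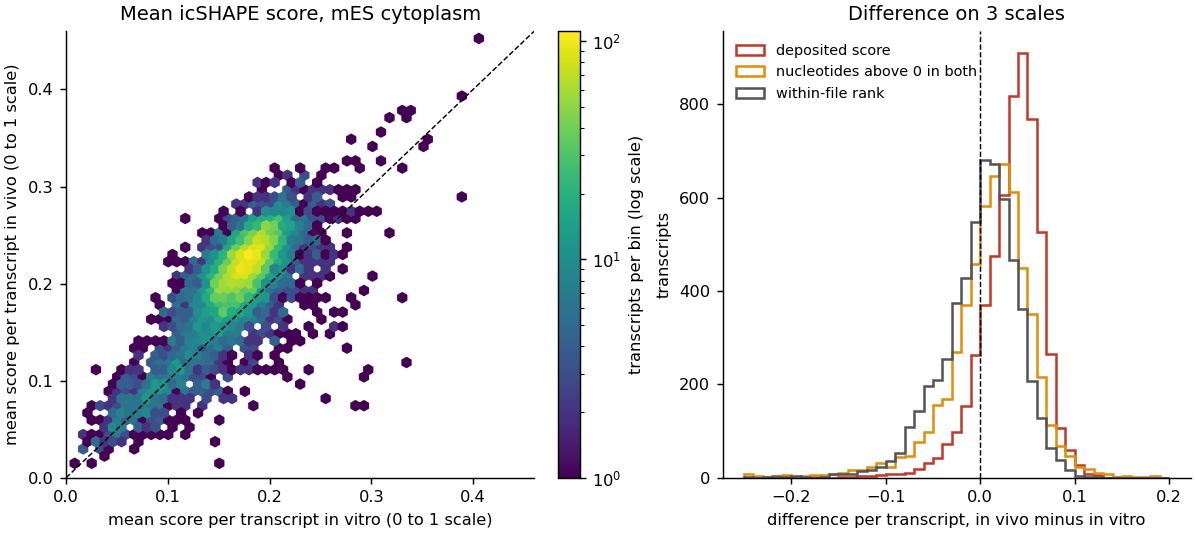
Left, mean icSHAPE score of each of the 5673 transcripts in vivo (vertical) against in vitro (horizontal), coloured by the number of transcripts per bin, with the line of equality dashed. Right, the difference in vivo minus in vitro per transcript on the deposited score, over nucleotides above 0 in both files, and as within-file rank. Differences beyond −0.25 or 0.2 are drawn at the edge. Most transcripts lie above the line (87.2%), and the rank differences centre close to 0. Ranking within each file removes a shift common to the whole file.

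The files differed in their share of zeros. Over all scored nucleotides, 34.5% were exactly 0 in the in vivo file and 47.7% in the in vitro file. A zero therefore had the rank 0.172 in vivo and 0.239 in vitro, so a nucleotide at 0 in both files ranked lower in vivo. The share of zeros per transcript had a median of 28.3% in vivo and 46.2% in vitro, and it was larger in vivo in 1.37% of transcripts. The share was lower in more abundant transcripts in both files (Spearman's rho −0.72 in vivo and −0.76 in vitro, n = 5673 transcripts that share a file and its depth). The Gini index, a measure of how unevenly score is spread along a transcript, had a median of 0.637 in vivo and 0.726 in vitro, and was higher in vivo in 2.66% of transcripts. The order of the Gini index turned round when ranks replaced scores, where it was higher in vivo in 62.9%. Zeros share a higher tied rank in vitro, which narrows the range of ranks there. The Gini index of ranks therefore depends on the share of zeros and is not a like measure of unevenness.

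Single nucleotides differed more than transcript means. Of the 7066338 shared nucleotides, 46.9% scored higher in vivo, 24.8% scored equal and 28.3% scored lower in vivo. Pearson's r across them was 0.53, as a description of nucleotides that share transcripts and, per the design text, solvent-control samples. Over the nucleotides above 0 in both files, 51.1% were higher in vivo and 44.7% lower. By within-file rank the majority was the opposite, with 43.1% of nucleotides higher in vivo and 56.9% lower, since a nucleotide at 0 in both files counts as lower in vivo on that scale. Both files were at 0 for 23.0% of nucleotides, which make up most of the equal ones.

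Many nucleotides at 0 in refolded RNA scored above 0 in living cells, and fewer the other way. Of the nucleotides at 0 in vitro, 48.4% were also at 0 in vivo, and 36.0% were in the class above 0 to 0.25. Of the nucleotides at 0 in vivo, 72.5% were also at 0 in vitro. At the other end the 2 files were alike: of the nucleotides at 1 in vitro, 38.1% were at 1 in vivo, and of those at 1 in vivo, 39.6% were at 1 in vitro. Complete switches were few, since 0.417% of all nucleotides were at 1 in vivo and 0 in vitro, and 0.232% were at 0 in vivo and 1 in vitro. Through the 5 in vitro classes, from 0 up to 1, the mean in vivo score was 0.113, 0.201, 0.327, 0.461 and 0.686. The most reactive positions overlapped in part: the nucleotides in the top 10% of ranks of both files made up 44.0% of those in vivo and 45.6% of those in vitro.

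**Figure D2:**
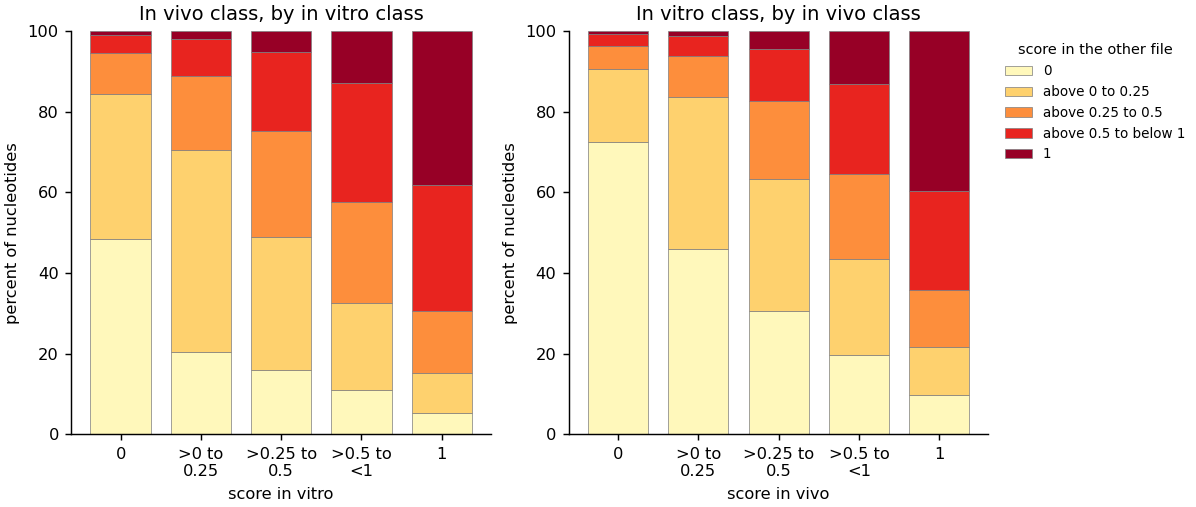
Share of the 7066338 shared nucleotides in each class of score, in percent. Left, the in vivo class of nucleotides grouped by their in vitro score. Right, the in vitro class of nucleotides grouped by their in vivo score. The palest part of the first bar of each panel is the share that is 0 in the other file, 48.4% of the in vitro zeros at left and 72.5% of the in vivo zeros at right.

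The pattern along a transcript was partly kept. The profile correlation, Pearson's r between the in vivo and in vitro scores over the shared nucleotides of a transcript, had a median of 0.589, with a middle range of 90% from 0.392 to 0.838. Both profiles were calculated with solvent-control samples according to the series' design text, and how much of r comes from a shared control was not tested. The correlation was higher in more abundant transcripts (Spearman's rho 0.61, n = 5673) and lower in longer ones (rho −0.48). In 5 equal classes of in vivo abundance, from low to high, the median r was 0.488, 0.517, 0.566, 0.643 and 0.749.

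The profiles that matched best were those of ENSMUST00000138887 (r = 0.915 over 354 nt), ENSMUST00000152262 (0.902), ENSMUST00000077747 (0.899), ENSMUST00000120853 (0.895) and ENSMUST00000071573 (0.891). Their means differed by varying amounts. ENSMUST00000120853 averaged 0.0916 in vivo and 0.0910 in vitro, whereas ENSMUST00000138887 averaged 0.149 in vivo and 0.130 in vitro, and ENSMUST00000071573 averaged 0.168 in vivo and 0.137 in vitro. Transcripts in which r was lowest included ENSMUST00000124678 (0.239 over 397 nt) and the long ENSMUST00000070210 (0.246 over 2773 nt). Both had low abundance signals, 14.6 and 28.0 in vivo against 17.1 and 31.5 in vitro. ENSMUST00000070210 averaged 0.223 in vivo and 0.166 in vitro. Its mean difference of 0.0570 lay above the upper quartile of all transcripts, 0.0542.

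The direction varied with length. Under 300 nt, 53.8% of 158 transcripts had the higher mean in vivo (interval 45.7% to 61.8%). The share was 80.3% of 2732 transcripts from 300 to under 1000 nt, 94.0% of 1247 from 1000 to under 2000 nt, 97.0% of 1157 from 2000 to under 4000 nt, and 98.4% of 379 at 4000 nt and over. The higher mean in vivo was thus near general in long transcripts, while the interval of the shortest included 50%. By rank the shares in the same classes were 22.2%, 44.5%, 71.5%, 76.3% and 56.2%. In the 5 classes of abundance, from low to high, the shares by score were closer together, at 86.7%, 88.9%, 90.0%, 87.0% and 83.2%. The shortest transcripts had a median of 0.151 in vivo and 0.150 in vitro. Abundance moved with length, at a median in vivo of 109 under 300 nt and 25.7 at 4000 nt and over. In the upper and lower part of the abundance range, split at its median, the 300 to under 1000 nt class gave 80.6% and 79.9%, and the class under 300 nt gave 53.4% and 54.8%.

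Among the most abundant transcripts the higher mean in vivo was less frequent, and at the top it was in the minority. At an in vivo abundance of at least 500, a limit set after the values were seen, 66.0% of 159 transcripts were higher in vivo by score and 22.6% by rank. At 1000 and over the shares were 62.1% and 15.5% of 58 transcripts. At 2000 and over they were 36.8% and 0% of 19 transcripts, with medians of the transcript means of 0.141 in vivo and 0.187 in vitro. In these 19 the order of zeros was the reverse of that in all transcripts, with a median share of 44.4% in vivo and 22.7% in vitro. The 19 transcripts had a median length of 492 nt, so abundance and length were not separated there.

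Of the 5 transcripts with the highest abundance in vivo, 4 had lower means in vivo and all 5 had lower mean ranks. ENSMUST00000182010, of 1831 nt, had abundance signals of 17120 in vivo and 37912 in vitro and averaged 0.102 in vivo and 0.162 in vitro. ENSMUST00000082390, of 1582 nt, averaged 0.134 in vivo and 0.217 in vitro. ENSMUST00000174924 averaged 0.112 in vivo and 0.182 in vitro, and ENSMUST00000175032 averaged 0.111 in vivo and 0.187 in vitro. These last share a stretch of the same zero pattern and count as one observation. The exception, ENSMUST00000160554, averaged 0.179 in vivo and 0.166 in vitro over 123 nt, and its mean rank was 0.470 in vivo and 0.531 in vitro. The longest of these transcripts held more zeros in vivo, with 45.8% in vivo against 29.1% in vitro in ENSMUST00000182010 and 50.5% in vivo against 18.3% in vitro in ENSMUST00000082390.

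The low scores did not cover these transcripts evenly. The point that best separated the in vivo scores of ENSMUST00000182010, chosen from its own profile after it was seen, lay at nucleotide 1350. Upstream of it the mean was 0.0196 in vivo and 0.154 in vitro, and downstream it was 0.349 in vivo and 0.185 in vitro. The transcript therefore scored near 0 in vivo over most of its length and above the refolded RNA near its 3′ end. In nucleoplasm the upstream part averaged 0.0967 in vivo and 0.183 in vitro, and the downstream part 0.155 in vivo and 0.155 in vitro. In chromatin the upstream part averaged 0.117 in vivo and 0.155 in vitro, and the downstream part 0.262 in vivo and 0.248 in vitro. At this point the in vivo mean of ENSMUST00000182010 rose in each fraction, most in cytoplasm, whose profile was the one used to choose the point. The in vitro mean rose as well in chromatin, from 0.155 to 0.248, and in cytoplasm, from 0.154 to 0.185, and fell in nucleoplasm. ENSMUST00000082390 had its step at nucleotide 1100, with 0.0781 in vivo and 0.204 in vitro upstream and 0.271 in vivo and 0.248 in vitro downstream. In nucleoplasm it had little step in vivo, with 0.124 in vivo and 0.248 in vitro upstream and 0.136 in vivo and 0.222 in vitro downstream. In chromatin the upstream part was higher in vivo, by 0.0225 over an in vitro mean of 0.218, and the downstream part averaged 0.401 in vivo and 0.285 in vitro.

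**Figure D3:**
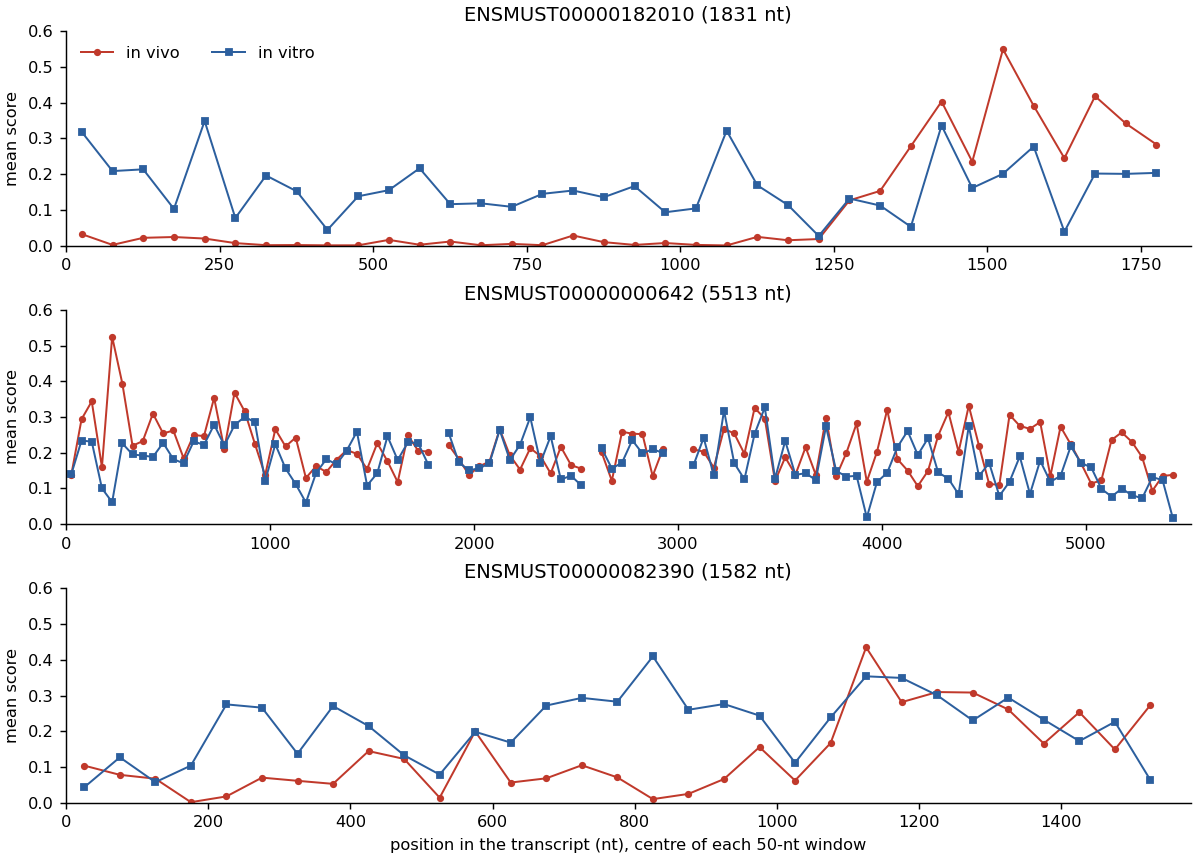
Mean icSHAPE score in 50-nt windows along 3 transcripts, in vivo and in vitro, against position in the transcript in nt. Breaks mark windows with fewer than 40 shared nucleotides. In ENSMUST00000182010 the in vivo line runs near 0 over the first 1250 nt and above the in vitro line from nucleotide 1301 on; ENSMUST00000000642 holds the largest upward window and ENSMUST00000082390 the largest downward one.

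Among transcripts that kept their direction on all 3 scales, the largest upward difference was in ENSMUST00000152665, which averaged 0.265 in vivo and 0.116 in vitro over 148 nt. ENSMUST00000165430 averaged 0.234 in vivo and 0.104 in vitro, and ENSMUST00000109642 averaged 0.272 in vivo and 0.156 in vitro. The 10 transcripts at this end included longer ones, such as ENSMUST00000084299, with 0.256 in vivo and 0.135 in vitro over 1133 nt, and ENSMUST00000129947, with 0.285 in vivo and 0.164 in vitro over 869 nt. Since direction on all scales was a condition of the choice, the rank and above-0 values of the 10 add nothing to it. Of the 10, 9 were also higher in vivo in nucleoplasm, against 69.3% of all 5185 cytoplasmic transcripts measured there. ENSMUST00000152665 was not, at 0.137 in vivo and 0.158 in vitro there. Nucleoplasm means cover the nucleotides scored in nucleoplasm, which were 339 in ENSMUST00000152665 against 148 in cytoplasm. The fractions were thus not compared over the same positions.

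The largest downward differences were larger than the upward ones. ENSMUST00000124824 averaged 0.0767 in vivo and 0.294 in vitro over 183 nt, ENSMUST00000133785 averaged 0.120 in vivo and 0.335 in vitro over 406 nt, and ENSMUST00000142179 averaged 0.0729 in vivo and 0.285 in vitro over 103 nt. These 3 had in vivo abundance signals between 15.1 and 29.6, below the median of 38.2. ENSMUST00000038863 was unlike the others in abundance, at 3022 in vivo and 7065 in vitro, and averaged 0.0112 in vivo and 0.151 in vitro. Of the 8 of these 10 transcripts that were measured in nucleoplasm, only ENSMUST00000038863 was lower in vivo there by score, at 0.0473 in vivo and 0.241 in vitro. By rank ENSMUST00000151741 (−0.0239) and ENSMUST00000145912 (−0.0302) were lower in vivo there as well. The scored positions differed between fractions, with 331 in nucleoplasm against 142 in cytoplasm in ENSMUST00000145912. In chromatin the differences by score were −0.0512 in ENSMUST00000133785, −0.0460 in ENSMUST00000038863 and 0.0155 in ENSMUST00000151741. ENSMUST00000124824, lowest in cytoplasm, was higher in vivo in nucleoplasm at 0.311 in vivo and 0.177 in vitro.

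All transcripts past the limit of 0.05 were then looked up in the other fractions. Of those higher in vivo by that much, 1668 were measured in nucleoplasm and 81.8% were higher in vivo there, against 69.3% of all 5185 cytoplasmic transcripts measured there. Of those lower in vivo by that much, 88 were measured in nucleoplasm and 53.4% were higher in vivo there. In chromatin 46 of the 100 lower ones were measured, with a median difference of −0.0445, and 28.3% were higher in vivo by score and 15.2% by rank. Of all cytoplasmic transcripts measured in chromatin, 70.1% were higher in vivo by score and 55.4% by rank. The downward ones were thus nearly evenly divided in nucleoplasm and mostly lower in vivo in chromatin. In the other fractions 10.3% of 8608 nucleoplasmic transcripts were higher in vivo by at least 0.05 and 1.77% lower, and 33.5% of 2072 chromatin transcripts were higher and 13.3% lower. In HEK293 cytoplasm 8.29% of 2786 transcripts were higher in vivo by at least 0.05 and 23.8% lower.

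Short stretches differed by more than whole transcripts did. In 50-nt windows with at least 40 shared nucleotides, 72.6% of 133468 windows were higher in vivo, and 54.5% by rank. The median window difference was 0.0396, and the middle 90% ran from −0.0699 to 0.162. A difference of at least 0.2 upward was met by 2501 windows (1.87%) in 1557 transcripts, and one of at least 0.2 downward by 131 windows (0.0982%) in 101 transcripts. All of these windows kept their direction by rank. Neighbouring nucleotides had similar differences only over a short range, as the median autocorrelation of the difference profile was 0.156 at 1 nt, 0.0526 at 10 nt and 0.0046 at 50 nt in 4735 transcripts.

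The 5 largest upward windows each lay within 250 nt of an end of their transcripts. ENSMUST00000000642 averaged 0.525 in vivo and 0.0615 in vitro over nucleotides 201 to 250 of 5513, where 47 of 50 nucleotides were higher in vivo and 28 were at 0 in vitro, against 2 in vivo. The windows beside it averaged 0.159 and 0.394 in vivo, against 0.100 and 0.226 in vitro. In the same window, nucleoplasm gave 0.428 in vivo and 0.131 in vitro. ENSMUST00000194649 averaged 0.513 in vivo and 0.0607 in vitro over its last scored window, 25 nt from the end. ENSMUST00000160052 averaged 0.564 in vivo and 0.123 in vitro, 44 nt from the end, and ENSMUST00000102525 averaged 0.477 in vivo and 0.0685 in vitro, 49 nt from the end. ENSMUST00000045866 averaged 0.472 in vivo and 0.0683 in vitro over nucleotides 151 to 200 of 4742, and 48 of its 50 nucleotides were higher in vivo and none lower.

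The largest downward window was in ENSMUST00000082390, which averaged 0.0101 in vivo and 0.410 in vitro over nucleotides 801 to 850. There 39 of 50 nucleotides were at 0 in vivo, against 1 in vitro, and 49 were lower in vivo. The window averaged 0.0410 in vivo and 0.513 in vitro in nucleoplasm, and 0.0976 in vivo and 0.322 in vitro in chromatin, so it scored lower in vivo in each mES fraction. ENSMUST00000182010 gave 0.0196 in vivo and 0.349 in vitro over nucleotides 201 to 250. Downward windows in ENSMUST00000148605 and ENSMUST00000134628, at 0.295 in vivo and 0.637 in vitro and at 0.135 in vivo and 0.468 in vitro, did not repeat in nucleoplasm, where the values were 0.387 in vivo and 0.378 in vitro, and 0.393 in vivo and 0.282 in vitro.

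Upward windows repeated in the other fractions almost without exception. Of the 2501, 2214 were measured in nucleoplasm and 99.1% were higher in vivo there, against 56.7% of all windows, with a median difference of 0.155. In chromatin 393 were measured and 98.0% were higher in vivo, against 79.2% of all windows. Of the 131 downward windows, 112 were measured in nucleoplasm, of which 83.0% were lower in vivo there. Across all windows, Pearson's r of the window differences was 0.67 between cytoplasm and nucleoplasm (106724 windows) and 0.53 between cytoplasm and chromatin (14406 windows). These windows share transcripts, sequence and cell line. Each fraction had its own in vivo and in vitro files, and no sample was shared between them. The cells were fractionated after NAI-N3, however, so the in vivo fractions may come from the same treated cells. The fractions therefore cannot be taken as independent replicates.

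Of 3 regions of a transcript, the 3′ end held the largest difference. In transcripts of at least 600 nt with at least 100 shared nucleotides in each region, the last 200 scorable nucleotides averaged 0.209 in vivo and 0.136 in vitro, the interior 0.225 in vivo and 0.181 in vitro, and the first 200 averaged 0.245 in vivo and 0.210 in vitro. The median difference was 0.0722 in the last 200, 0.0424 in the interior and 0.0309 in the first 200. The difference was larger in the last 200 than in the interior in 73.5% of these transcripts (1470, against 529 where it was not), and in 69.9% by rank. Relative to the interior, the median of the last 200 nucleotides was −0.0133 in vivo and −0.0437 in vitro, so the end stood further below the interior in vitro. In 20-nt steps the difference peaked 61 to 80 nt from the end, at 0.226 in vivo and 0.118 in vitro. The same comparison gave 77.4% in nucleoplasm, 53.9% in chromatin and 50.7% in HEK293 cytoplasm, each without a test of the difference between fractions.

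**Figure D4:**
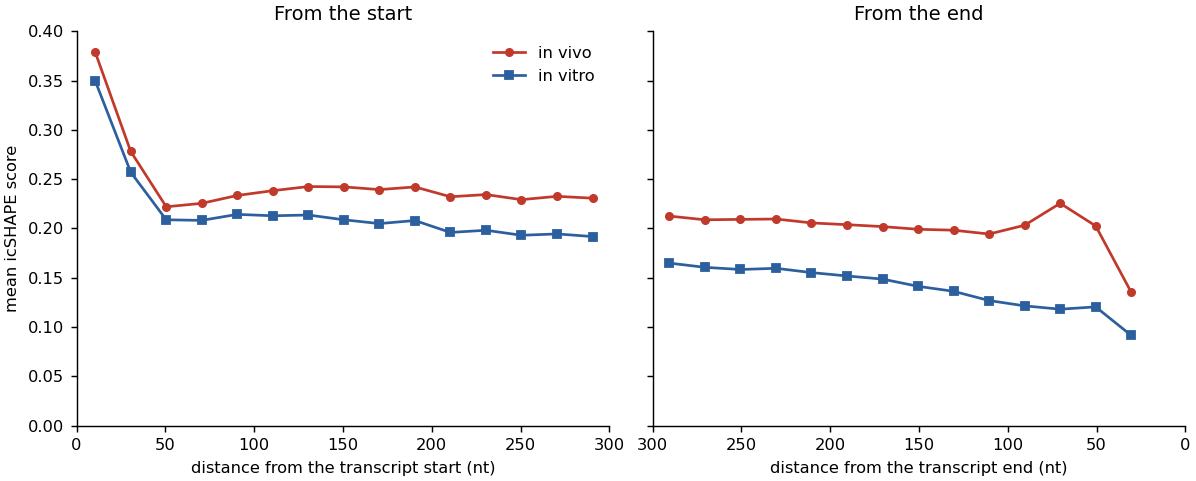
Mean icSHAPE score in steps of 20 nt from the transcript start (left) and from the transcript end (right), in vivo and in vitro, for transcripts of at least 600 nt. Score is 0 to 1 and distance is in nt. The in vivo line is above the in vitro line throughout and the gap is widest 61 to 80 nt from the end, at 0.226 in vivo and 0.118 in vitro.

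Windows of at least 0.2 upward were also placed toward the 3′ end, since 28.1% of them ended within 250 nt of the transcript end, against 14.8% of all windows. Windows near the start were not counted. With 2268 transcripts cut into 10 equal parts, the first part had a median score of 0.249 in vivo and 0.213 in vitro, and the last part 0.204 in vivo and 0.124 in vitro. In the last part, 90.7% of transcripts were higher in vivo by score and 77.1% by rank. In the other 9 parts the share by rank was between 54.4% and 64.9%, so the rank scale favoured living cells most at the 3′ end.

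A 3-nt period, the length of a codon, was present in both files and, by score, stronger in vivo. Its strength in the 2 files was not compared by rank or over nucleotides above 0. It was measured as the power of the score profile at 1 cycle per 3 nt over the mean power at 24 neighbouring frequencies, in 3617 transcripts with at least 500 shared nucleotides. The ratio had a median of 3.60 in vivo and 2.27 in vitro and was higher in vivo in 69.5% of transcripts. It was above 5 in 38.7% in vivo and 23.3% in vitro, whereas at the control frequencies of 0.24 and 0.43 per nt no more than 1.27% passed in either file. The period occurred in refolded RNA too, so it was not limited to living cells.

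The phase of the period was similar in both files. In the 692 transcripts with a ratio above 5 in both, 94.9% had phases within 30 degrees of each other and all 692 within 60 degrees. In the 931 transcripts under 2 in both, 33.9% were within 30 degrees. The strongest in vivo was ENSMUST00000156249, with a ratio of 62.0 in vivo and 68.4 in vitro and a phase difference of −6.56 degrees. ENSMUST00000001304 had 58.7 in vivo and 8.93 in vitro with a phase difference of 13.0 degrees, and ENSMUST00000103220 had 54.9 in vivo and 24.1 in vitro with −2.60 degrees. The phases of these transcripts thus lay close together while the strength of the period differed by transcript.

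**Figure D5:**
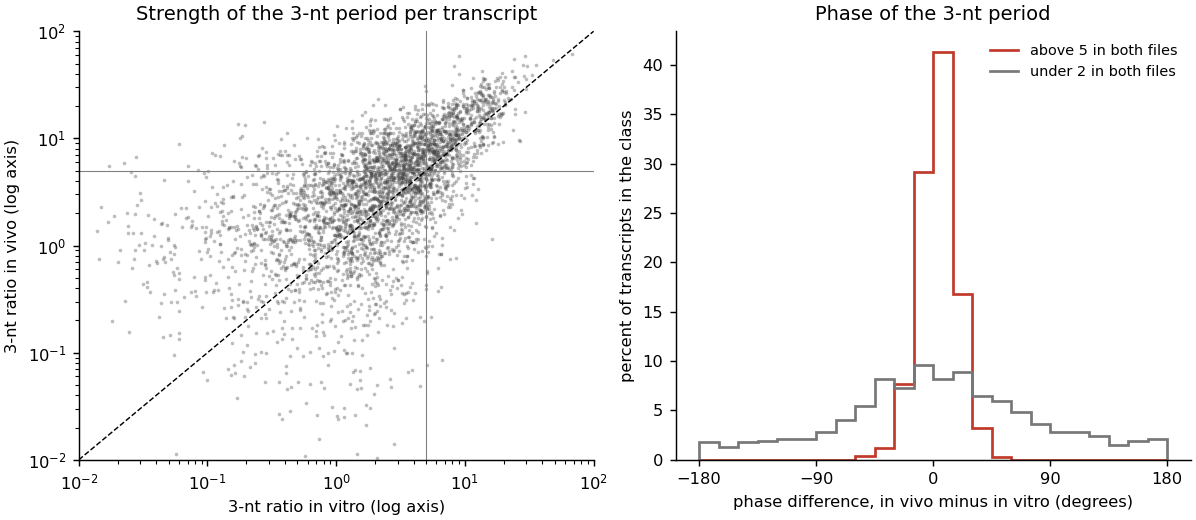
Left, the 3-nt ratio of each of 3617 transcripts in vivo (vertical) against in vitro (horizontal), on log axes, with the ratio of 5 marked in grey and equality dashed. Right, the phase difference in vivo minus in vitro in degrees for transcripts above 5 in both files and under 2 in both files, as percent of each class. The first class lies within 60 degrees of 0 throughout, with 94.9% within 30 degrees, against 33.9% of the second.

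The direction by score differed between the pairs of files. The share of transcripts with the higher mean in vivo was 87.2% in mES cytoplasm, 64.7% in mES nucleoplasm and 66.7% in mES chromatin, and 28.5% in HEK293 cytoplasm. By rank the shares were 57.1%, 59.3%, 45.4% and 58.9% in the same order. Counted over transcripts, the scores of mES and HEK293 cytoplasm thus went opposite ways while the ranks did not. Over nucleotides the ranks differed in direction too. Their mean was 0.510 in vivo and 0.501 in vitro in mES cytoplasm, and 0.503 in vivo and 0.516 in vitro in HEK293 cytoplasm. In the interior of transcripts the median rank difference was 0.0119 in mES and −0.0203 in HEK293 cytoplasm. The HEK293 files held the opposite balance of zeros, at 36.0% in vivo and 25.0% in vitro. They also differed in scored positions, which were the same in vivo and in vitro in 685 of 2786 HEK293 transcripts. In mES cytoplasm they were the same in all 5673. The part of zeros in the score difference was not tested.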

How the data were processed

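The icSHAPE files deposited by the authors held, per transcript, an abundance signal and 1 score per nucleotide from 0 to 1 in steps of 0.001 or a missing value. The first 6 and last 30 nucleotides were never scored. Scores were calculated from NAI-N3 and DMSO samples, per the labels' series design. No source used here says how score and abundance were scaled or whether replicates were pooled. The submitters' processing notes name Bowtie2, UMI-tools and the builds mm10 and hg38. In the mES nucleoplasm in vivo file 3 nucleotides outside 0 to 1 were left out.

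Means were taken over nucleotides scored in both files, with Python 3.11.15, numpy 2.4.6, scipy 1.17.1 and matplotlib 3.10.9. Ranks were averaged over ties and divided by the number scored in the file, so they cannot show a shift of a whole file. Intervals are Clopper-Pearson for shares and order statistics for medians, at 95%. The calculations of the Gini index, mean difference, profile correlation, period, ranks and families were checked on made data with known answers. Transcripts with the same order of zeros and other scores over 60 nt formed families (5523 in all, with 180 transcripts in families of 2 or more).

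Named transcripts were the 10 with the largest and the 10 with the lowest difference among those keeping direction on 3 scales with at least 50 nucleotides above 0, 5 at each end of profile correlation, 5 by abundance, 5 by 3-nt ratio, and 5 windows at each end. The members and lists were chosen with earlier results of these data known.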

Additional observations from a re-analysis of the deposited data

Results flagged for a closer look

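The median difference of transcript mean score, in vivo minus in vitro, was 0.0383 in mES cytoplasm and −0.0237 in HEK293 cytoplasm. The same contrast thus had opposite signs in the cytoplasm of the cell lines. Each value comes from 1 file a side, and the difference between the cell lines was not tested. The libraries of the lines were made with different kits, so line and batch cannot be told apart.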

How the results depend on the processing

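No paired analysis was possible because each group was 1 file. Taking all nucleotides scored in each file changed nothing, since the scored positions were the same in both. The share of transcripts with the higher mean in vivo was 57.1% with ranks, 69.9% over at least 100 nucleotides above 0 in both files, 92.3% with at least 300 shared nucleotides, 82.3% over nucleotides scored in all 6 mES files, 89.4% without scores of 1, 88.1% in transcripts of at least 300 nt and 89.8% without the first and last 200 nucleotides. The median difference in the same settings, except the length limit, was 0.00616, 0.0178, 0.0413, 0.0394, 0.0401 and 0.0395. The median profile correlation was 0.521, 0.523, 0.572, 0.672, 0.454 and 0.562. The setting with all 6 mES files kept 937 of the 5673 transcripts, so the set of transcripts changed as well as the nucleotides.

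The share with a higher Gini index in vivo reversed to 62.9% with ranks, a scale on which zeros had unlike tied ranks in the files. It was 17.8% above 0, 0.845% with 300 shared nucleotides, 10.7% over 6 files and 1.76% with abundance within 1.5 times. It was 2.18% without scores of 1, 1.70% at 300 nt and over, and 1.59% without the ends. The share with more zeros in vivo was 0.422%, 6.94%, 0.647%, 0.562% and 0.633% under the limit of 300 shared nucleotides, 6 files, abundance, length and ends. A stronger 3-nt period in vivo was found in 65.1% of 427 transcripts over 6 files. Control frequencies gave 48.5% at 0.24 and 50.1% at 0.43. The larger difference at the 3′ end was 69.9% with ranks and 71.0% without scores of 1. Phases within 30 degrees were 87.6% with ranks. By rank 452 transcripts had a 3-nt ratio above 5 in both files, against 692 by score. The alternatives for ends, the 3′ region and the phase were chosen after seeing the data.

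Of 166 values of named transcripts and windows under these settings, 72 could not reverse, because the transcripts were chosen for keeping direction or because the scored positions were the same. Of the other 94, 86 kept their direction and 8 reversed. Some of the 86 could not have reversed either. In ENSMUST00000182010 and ENSMUST00000151741, for example, the nucleotides scored in all mES files were those of the main value. The window values came from windows picked for their extreme differences, so a reversal there was unlikely. The 86 therefore do not measure how stable direction was. Every reversal was in a transcript named for its profile correlation or abundance. With ranks, ENSMUST00000138887 gave −0.0327, ENSMUST00000120853 −0.0712, ENSMUST00000071573 −0.0282, ENSMUST00000124678 −0.0040, ENSMUST00000158792 −0.0291 and ENSMUST00000160554 −0.0613. ENSMUST00000120853 also gave −0.0046 above 0 and −0.0013 without scores of 1. The cause of these changes was not tested. Depth is unknown, so whether a score of 0 reflects low coverage cannot be told apart from low reactivity.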
